A study of Mus musculus with 17 samples.

Results

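The genes described here are 6 insulin-like growth factor (IGF) binding protein genes, Igfbp2, Igfbp3, Igfbp4, Igfbp5, Igfbp6 and Igfbp7, and Igf1r, the receptor for IGF1. They are 7 of the 38293 gene IDs in one count table and of the 55487 in the other. The 7 symbols were chosen from measured levels and differences in these same libraries, and no threshold is recorded for the choice. The p-values below are adjusted over all genes tested in a comparison. They describe these libraries and are no independent test of the list.

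The libraries are polyadenylated RNA of mouse lacrimal gland, the gland that secretes the watery part of tears. The first table holds 3 libraries of wildtype gland tissue and 3 each of wildtype organoids that had not been cloned (labelled bulk), in expansion medium (EM) or differentiation medium (DM), with lines numbered 6, 7 and 8. The second has both media for 2 wildtype (WT) clones and for 2 clones with the label Pax6 KO, so a genotype rests on 2 clones. EM organoids had 7 days of EM, and uncloned DM organoids had 2 days of EM and then 5 days of DM. For the clones, the series text gives 7 days of DM and the growth protocol the schedule of 2 and 5 days. The labels do not give the animals' sex or age, or whether a line number is 1 animal, so p-values measure the spread between these samples.

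IGF1 and IGF2 act through IGF1R, a receptor tyrosine kinase that signals to PI3 kinase, AKT and mTOR. IGF-binding proteins are secreted carriers that hold IGFs away from the receptor, prolong their life or, when cut by proteases such as PAPP-A, release them. IGFBP7 binds IGFs only weakly. IGFs and their carriers can be made by stromal and by epithelial cells.

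Levels are CPM, a gene's share of its library's counts after edgeR's TMM scaling, and levels of different genes are compared only per kilobase of exon (RPKM). Total counts ran from 12801473 to 22500534 per library. In the tissue all 8 fibroblast and all 8 endothelial markers of the lists used were detected, and the fibroblast markers summed to 704 to 842 CPM. In uncloned organoids they summed to 0.110 to 0.290 CPM in EM and 0.461 to 0.769 CPM in DM, with Col1a2, Col3a1, Dpt and Lum at 0 in both media. The endothelial markers summed to 67.3 to 79.8 CPM in tissue and 0.513 to 1.62 CPM in uncloned organoids, with Cldn5, Emcn, Kdr and Plvap at 0. Pax6 transcript did not separate the genotypes: labelled KO against WT clones differed by -0.23 (adjusted p = 0.744) in EM and by -0.17 (adjusted p = 0.831) in DM on the log2 scale. The transcript level therefore does not check those labels.

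On GRCm38 (GENCODE M21) Igfbp2 lies on chromosome 1 from 72824503 to 72852474 on the plus strand (ENSMUSG00000039323), and Igfbp5 on the minus strand from 72857932 to 72874884 (ENSMUSG00000026185). Their 3′ ends face each other across 5457 bases. Igfbp3 (ENSMUSG00000020427) lies on chromosome 11 from 7206086 to 7213923, minus strand, and Igfbp4 (ENSMUSG00000017493) on the same chromosome from 99041244 to 99054392, plus strand. Igfbp6 (ENSMUSG00000023046) lies on chromosome 15 from 102144362 to 102149511, and Igf1r (ENSMUSG00000005533) on chromosome 7 from 67952827 to 68233668, both on the plus strand. Igfbp7 (ENSMUSG00000036256) lies on chromosome 5 from 77349240 to 77408041, minus strand. Its last 85 bases overlap the end of Polr2b on the other strand, and the strand setting of the counting is not given. Polr2b, a subunit of RNA polymerase II, had log2 fold changes between -0.24 and 0.03 in the comparisons below, and its lowest adjusted p was 0.238.

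Igfbp3 and Igfbp7 were the genes that rose together in DM in the uncloned organoids and in the WT clones, so the 250 bases before the start of each are shown (RefSeq, GRCm38.p6, minus strand, 5′ to 3′). Igfbp3 is at chr11:7213924-7214173 and Igfbp7 at chr5:77408046-77408295. Capitals mark the GC box GGGCGG on either strand.
Igfbp3: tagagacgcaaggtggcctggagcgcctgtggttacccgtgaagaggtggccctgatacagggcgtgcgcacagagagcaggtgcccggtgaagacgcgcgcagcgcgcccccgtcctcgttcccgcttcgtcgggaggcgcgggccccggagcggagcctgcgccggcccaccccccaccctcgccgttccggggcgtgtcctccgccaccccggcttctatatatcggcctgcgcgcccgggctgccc
Igfbp7: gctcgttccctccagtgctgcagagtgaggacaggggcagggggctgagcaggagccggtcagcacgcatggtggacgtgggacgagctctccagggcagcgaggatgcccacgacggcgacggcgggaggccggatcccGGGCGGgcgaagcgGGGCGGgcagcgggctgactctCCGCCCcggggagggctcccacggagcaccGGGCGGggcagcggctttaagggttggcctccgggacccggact
The Igfbp7 window held 4 GC boxes, beginning 110, 96, 74 and 44 bases before the start, the one at 74 on the other strand. The Igfbp3 window held none. Of 32851 promoter windows of that length, 32.7% held this motif. Neither window held the TATA box TATAAA (12.4% of windows), the AP-1 element TGACTCA (4.46%), the SMAD box CAGAC (42.2%) or the TCF element CTTTGAT (3.21%), read on both strands, nor did that of Igfbp5. These motifs do not overlap one another. A match is a description of letters, not of binding. Exact letters alone were searched, so variants, such as the letters tatatat in the Igfbp3 window, were not counted.

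**Figure D1:**
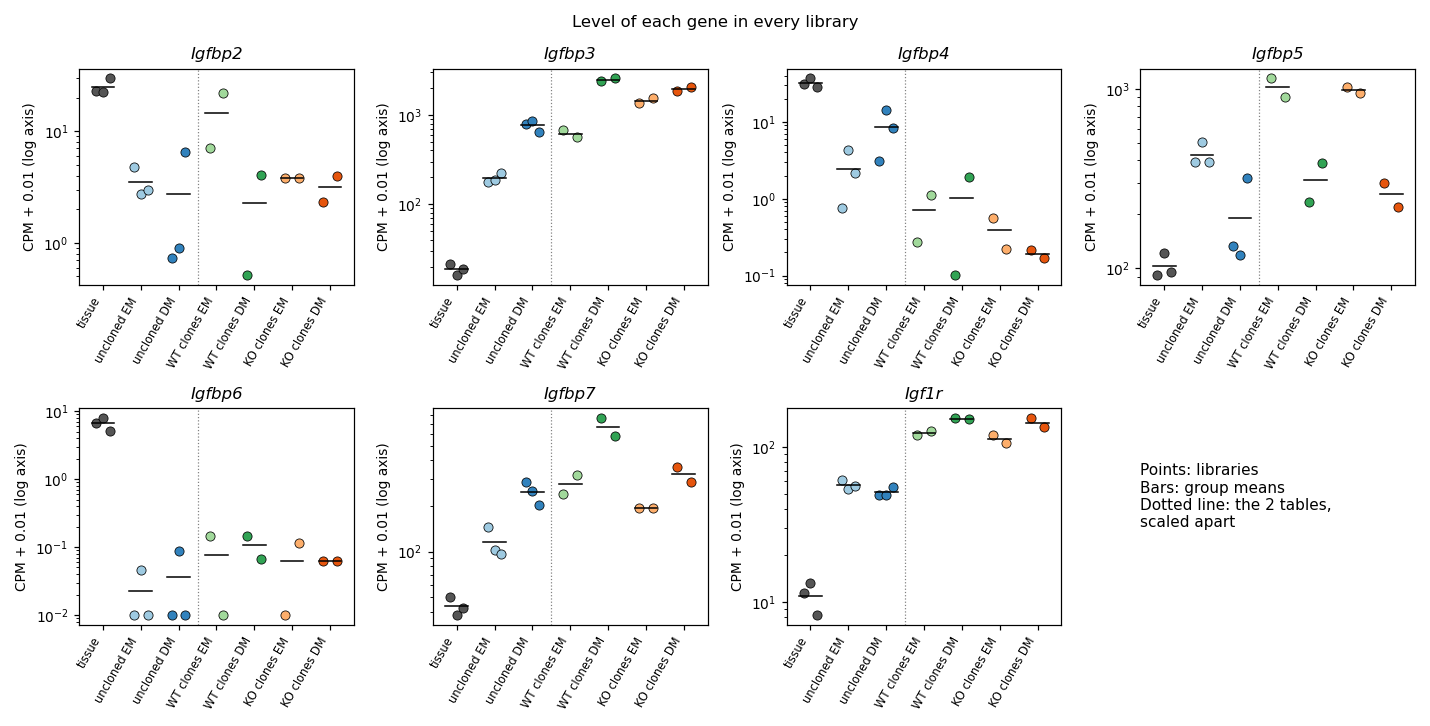
Level of each gene in every library, as CPM plus 0.01 on a log axis, by group; points are libraries and bars are group means. Igfbp2, Igfbp4 and Igfbp6 were high in the 3 tissue libraries, while Igfbp3, Igfbp7 and Igf1r were at their lowest there; the dotted line parts the 2 count tables, which were scaled apart.

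The first question was how organoids differ from the gland tissue. Of the 7 genes, 4 were higher and 3 lower in uncloned EM organoids than in tissue, and the same counts held for DM, where 74.8% of all tested genes were called in EM against tissue and 75.5% in DM against tissue. The members' share is thus read against a background in which most genes differed. Both comparisons use the same 3 tissue libraries. Igfbp6 passed the filter on low counts through those libraries alone, so it could not have been called higher in the organoids. The genes that were lower, Igfbp2, Igfbp4 and Igfbp6, moved with the markers of several cell types. In both comparisons all 8 fibroblast markers, the 7 endothelial markers tested, 5 of 6 tested immune markers and 5 of 6 acinar markers were called lower. Of the myoepithelial markers tested, 5 of 5 were lower in EM and 2 of 5 in DM, and of the pericyte and vascular muscle markers 4 of 4 were lower in EM and 3 of 4 in DM. The exceptions called higher were the acinar marker Ltf in both, the immune marker Cd68 in EM and the pericyte marker Rgs5 in DM. All 6 basal and all 6 duct epithelial markers were called higher, as were Igfbp3, Igfbp5, Igfbp7 and Igf1r, with basal sums of 157 to 202 CPM in tissue and 3071 to 6228 CPM in the organoids. The part of any of these cell types in the results was not tested. In bulk samples fewer cells of a type and less RNA per cell cannot be told apart.

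Igfbp6, a carrier with a preference for IGF2, was found almost entirely in the tissue libraries. Its level was 6.75, 7.84 and 5.14 CPM in the 3 tissue libraries, from 121 counts. There was 1 count in the 3 EM libraries together and 2 in the 3 DM libraries. The ratio of tissue to EM was 484 (95% exact interval 85.3 to 19300) and of tissue to DM 227 (61.4 to 1890), for counting error only. In the clones 3, 4, 2 and 2 counts were found in WT EM, WT DM, KO EM and KO DM, and the gene did not pass the filter on low counts there.

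Igfbp4, a carrier that inhibits IGF action and is cut by PAPP-A, had 30.9, 36.8 and 28.5 CPM in tissue. The EM libraries had 0.747, 4.31 and 2.15 CPM and the DM libraries 3.13, 14.1 and 8.36 CPM. All organoid libraries lay below all tissue libraries. The log2 fold change was -3.71 ± 0.56 (SE) for EM (adjusted p = 9.70e-05) and -1.89 ± 0.51 for DM (adjusted p = 0.00528). In the 8 clone libraries Igfbp4 was between 0.0915 and 1.94 CPM, a level from another table.

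Igfbp2, a carrier of fetal and many epithelial tissues, had 23.1, 22.2 and 29.7 CPM in tissue and 4.73, 2.74 and 2.98 CPM in EM. The DM libraries of lines 6 and 7 had 0.718 and 0.884 CPM, and that of line 8 had 6.50 CPM. Every organoid library was below every tissue library, and line 8 stood apart within DM. The log2 fold change was -2.85 ± 0.61 for EM (adjusted p = 0.00125) and -3.18 ± 0.62 for DM (adjusted p = 6.66e-04). Without the DM library of line 8 the latter was -4.94.

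Igfbp3, the main carrier of IGFs in blood, differed most in the other direction. It had 21.1, 16.0 and 18.9 CPM in tissue, 177, 184 and 223 CPM in EM, against 782, 855 and 652 CPM in DM. The 3 groups did not overlap. The log2 fold change against tissue was 3.38 ± 0.15 for EM (adjusted p = 4.83e-09), a fold of 10.4, and 5.35 ± 0.16 for DM (adjusted p = 2.49e-10), a fold of 40.8.

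Igfbp7, a carrier that also binds matrix, had 50.2, 38.1 and 42.2 CPM in tissue, 146, 103 and 95.7 CPM in EM, against 289, 253 and 203 CPM in DM. These 3 groups did not overlap either. The log2 fold change against tissue was 1.40 ± 0.18 for EM (adjusted p = 2.99e-05) and 2.51 ± 0.19 for DM (adjusted p = 2.67e-07).

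Igfbp5, a carrier that binds matrix and is abundant in involuting glands, had 91.8, 122 and 95.01 CPM in tissue. It had 389, 504 and 393 CPM in EM, above all tissue libraries, a log2 fold change of 2.06 ± 0.33 (adjusted p = 1.35e-04). In DM it had 134, 118 and 320 CPM, so the line 7 library lay within the tissue range and line 8 far above it. The DM difference was 0.89 ± 0.32 (adjusted p = 0.0241) and was no longer called without the DM library of line 8 (0.30, adjusted p = 0.0709), the line 6 tissue library (0.82, adjusted p = 0.0775) or the line 8 tissue library (0.84, adjusted p = 0.0767).

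Igf1r had 11.4, 13.3 and 8.23 CPM in tissue, 61.1, 53.4 and 55.9 CPM in EM, against 48.5, 48.6 and 55.3 CPM in DM. All organoid libraries were above all tissue libraries, while EM and DM overlapped. The log2 fold change was 2.39 ± 0.15 for EM (adjusted p = 6.27e-08) and 2.23 ± 0.15 for DM (adjusted p = 1.03e-07).

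The scaling bears on every comparison with tissue, whose scaling factors were 0.388 to 0.405 against 1.53 to 1.66 in the organoids. With library totals alone the median of all genes was 2.06 higher in EM and 1.99 higher in DM than in tissue, so the values above are relative to the median gene. On that scale Igfbp2 was at -0.80 for EM (adjusted p = 0.227) and -1.21 for DM (adjusted p = 0.0825), and Igfbp4 at -1.65 for EM (adjusted p = 0.0147) and 0.083 for DM (adjusted p = 0.879). The directions of Igfbp3, Igfbp5, Igfbp6, Igfbp7 and Igf1r did not change.

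Per kilobase of exon the 6 carriers together summed to 83.9 to 89.2 RPKM in tissue, 218 to 245 in EM and 435 to 512 in DM. In tissue the order of mean levels was Igfbp7 at 36.0 RPKM (SD 5.12, n = 3), Igfbp5 at 17.1 (SD 2.74), Igfbp2 at 13.5 (SD 2.21), Igfbp4 at 7.27 (SD 0.966), Igfbp3 at 5.97 (SD 0.815) and Igfbp6 at 5.91 (SD 1.22). Neighbours among the last 3 of these differed by less than the sum of their SDs, as did Igfbp5 and Igfbp2. In EM, Igfbp7 at 95 RPKM (SD 22.3), Igfbp5 at 71.3 (SD 10.8) and Igfbp3 at 62.3 (SD 7.92) also differed by less than that from their neighbours, and Igfbp2 at 1.89 (SD 0.589) and Igfbp4 at 0.544 (SD 0.407) were far below them. In DM, Igfbp3 at 244 RPKM (SD 33.0) and Igfbp7 at 205 (SD 35.5) led without differing beyond their SDs, and Igfbp5 was at 31.7 (SD 18.7). Igf1r was at 0.653 RPKM (SD 0.153) in tissue, 3.38 (SD 0.234) in EM and 3.03 (SD 0.232) in DM.

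The make-up of the sum differed too. Tissue held all 6 carriers, with Igfbp2 at 15.8% of the sum, Igfbp4 at 8.48% and Igfbp6 at 6.89% on average. In DM these 3 made 0.326%, 0.401% and 0.00456%. Igfbp3 made 6.95% of the sum in tissue, 27.1% in EM and 50.2% in DM. Igfbp7 stayed near one level, at 41.9%, 40.9% and 42.2%, and Igfbp5 made 20.01%, 30.95% and 6.83%. A share within a library does not depend on library scaling.

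**Figure D2:**
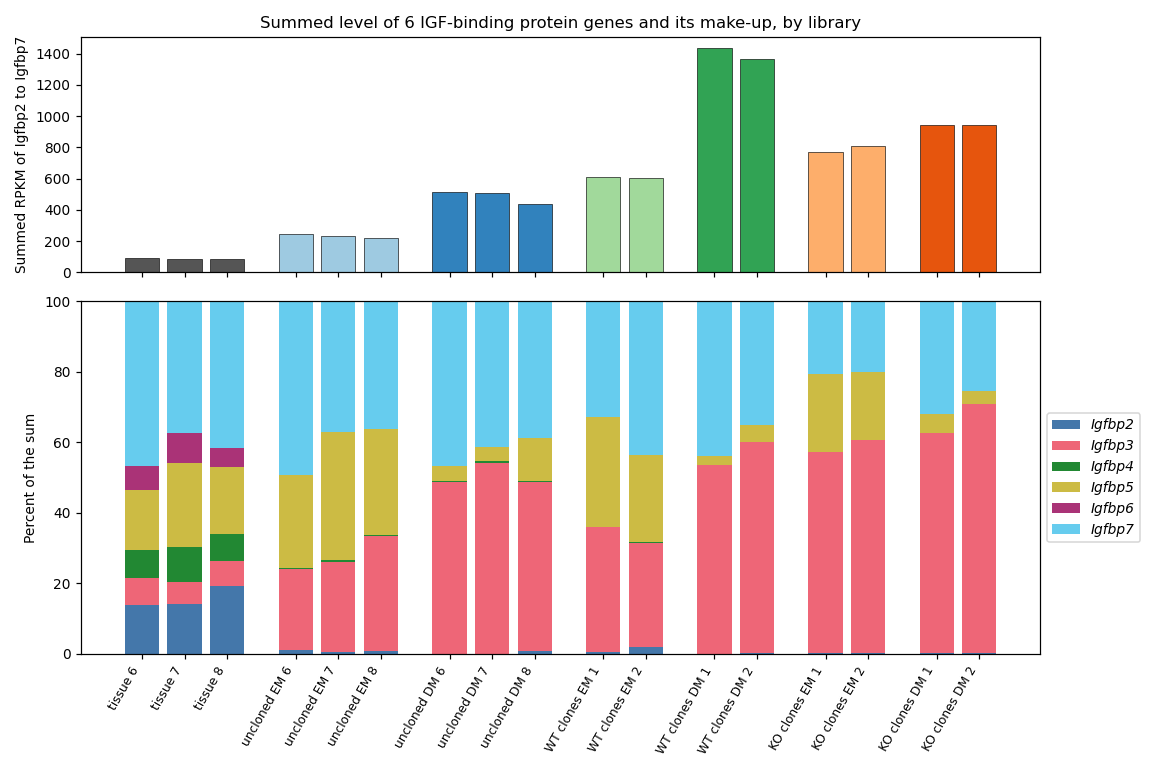
Upper bars give the summed RPKM of the 6 carrier genes in each library, and lower bars the percent of that sum from each gene. The share of Igfbp3 averages 6.95% in tissue, 50.2% in uncloned DM organoids and 66.6% in KO clones in DM, and the bands of Igfbp2, Igfbp4 and Igfbp6 are wide only in tissue.

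The next question was how organoids in DM differ from those in EM. In uncloned organoids 3 of the 7 genes were higher in DM than in EM and 1 was lower, where 30.3% of all tested genes were called. Igfbp3 rose by 1.97 ± 0.13 on the log2 scale (adjusted p = 5.54e-06) and Igfbp7 by 1.11 ± 0.17 (adjusted p = 7.43e-04). Within lines 6, 7 and 8 the ratio of DM to EM was 4.41, 4.64 and 2.92 for Igfbp3 and 1.98, 2.45 and 2.12 for Igfbp7. Every line moved upward for both genes.

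Igfbp5 fell by 1.17 on the log2 scale (SE 0.31, adjusted p = 0.0157), with DM to EM ratios of 0.344, 0.235 and 0.814 in lines 6, 7 and 8. All lines moved downward, line 8 least. Without the DM library of line 8 the fall was 1.77, and the call was lost without the EM library of line 7 (adjusted p = 0.0589) or the DM library of line 6 (adjusted p = 0.0658).

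Igfbp4 rose by 1.82 ± 0.54 (adjusted p = 0.0270) from low levels, with ratios of 4.18, 3.26 and 3.88. The lines kept their distance in both media, so the groups overlapped while every line moved upward. The rise was 1.82 with the block on line (adjusted p = 0.00487). It was not called without the EM library of line 6 (1.40, adjusted p = 0.0772), the EM library of line 8 (1.74, adjusted p = 0.0852) or the DM library of line 7 (1.26, adjusted p = 0.109), nor in a fit of these 6 libraries alone (adjusted p = 0.0671).

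Igfbp2, Igfbp6 and Igf1r were not called. Igfbp6 passed the filter through tissue alone and had 1 count in the EM libraries and 2 in the DM libraries. At those counts no call was possible, so the 7 genes counted here include 1 that could not be called. Igfbp2 differed by -0.33 ± 0.62 (adjusted p = 0.726): it was lower in DM in line 6 (ratio 0.152) and line 7 (ratio 0.323) and higher in line 8 (ratio 2.18). Without the DM library of line 8 it was called lower (-2.09, adjusted p = 2.46e-04). Igf1r differed by -0.16 ± 0.12 (adjusted p = 0.362), with ratios of 0.795, 0.911 and 0.990.

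Markers of other cell types moved in the same comparison. The 6 myoepithelial markers summed to 5.88 to 6.97 CPM in EM and 134 to 225 CPM in DM, highest in line 8, and Acta2, Mylk, Cnn1 and Actg2 were called higher. The 6 pericyte and vascular muscle markers summed to 0.291 to 0.497 CPM in EM and 21.3 to 40.9 CPM in DM, but Des, Kcnj8 and Pdgfrb were at 0 in both media and Rgs5 and Abcc9 were the markers called higher. Of the basal markers 4 of 6 were called higher (sums of 3071 to 3360 CPM in EM, 4911 to 6228 CPM in DM), and of the duct markers 4 of 6. The acinar markers summed to 9997 to 10304 CPM in EM and 6298 to 7825 CPM in DM, with Aqp5, Lpo, Pigr and Dmbt1 called higher and Ltf lower. Of 8 fibroblast markers tested 2 were called higher, at the low sums given above. Of 6 immune markers tested 1 was called higher. Of 7 endothelial markers tested 1 was called higher and 1 lower, and of 2 nerve markers 0 were called. The part of these markers' cells in the changes of Igfbp3, Igfbp4, Igfbp5 and Igfbp7 was not tested.

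In the WT clones 2 of the 6 genes tested were higher in DM and 1 was lower, where 15.7% of all genes were called. Igfbp3 had 672 and 562 CPM in EM, against 2399 and 2568 CPM in DM for clones 1 and 2, a log2 fold change of 2.01 ± 0.16 (adjusted p = 0.00148). Igfbp7 had 242 and 319 CPM in EM, against 760 and 581 CPM in DM, a log2 fold change of 1.26 ± 0.20 (adjusted p = 0.00916). Igfbp5 went the other way, from 1142 and 903 CPM in EM to 233 and 385 CPM in DM, a log2 fold change of -1.73 ± 0.27 (adjusted p = 0.00905). The media did not overlap for any of these. Without the EM library of WT clone 1, Igfbp7 was at 1.07 (adjusted p = 0.0543).

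Igfbp2 was low in DM in both WT clones but differed between the clones. Clone 1 went from 7.09 to 0.503 CPM and clone 2 from 22.0 to 4.04 CPM, ratios of 0.0710 and 0.184. The log2 fold change was -2.69 ± 0.91 (adjusted p = 0.0918), and with the clone as a block it was -2.93 (adjusted p = 0.00228). Without the DM library of clone 2 it was -4.83 (adjusted p = 0.0208), without that of clone 1 -1.84 (adjusted p = 0.166), without the EM library of clone 2 -1.66 (adjusted p = 0.348) and without that of clone 1 -3.29 (adjusted p = 0.107). Igf1r had 119 and 126 CPM in EM, against 152 and 151 CPM in DM, a difference of 0.31 ± 0.11 that was not called (adjusted p = 0.0951). Igfbp4 was at 0.268 and 1.13 CPM in EM, against 0.0915 and 1.94 CPM in DM, with clones moving opposite ways (0.52 ± 1.20, adjusted p = 0.819).

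In the clones labelled KO, 1 of the 6 genes tested was lower in DM and 0 were higher, where 8.35% of all genes were called by edgeR. At an unadjusted p under 0.05 the counts were 3 higher and 1 lower, and DESeq2 called 3 higher and 1 lower. Those that DESeq2 called higher were Igfbp3 (0.45, adjusted p = 0.0174), Igfbp7 (0.76, adjusted p = 0.00285) and Igf1r (0.36, adjusted p = 0.0440). Over all genes, 3510 of 14282 had an unadjusted p under 0.05 and DESeq2 called 1973 of 14282. Igfbp5 had 1022 and 944 CPM in EM, against 298 and 219 CPM in DM, a log2 fold change of -1.93 ± 0.27 (adjusted p = 0.0121). It was also called with the clone as a block (adjusted p = 0.00338) and by DESeq2 (adjusted p = 1.47e-11). A fit of the 4 KO libraries alone called it too (adjusted p = 0.00595). Leaving out any 1 of the 4 KO libraries kept the direction but not the call: adjusted p = 0.0675 without KO clone 1 in EM, adjusted p = 0.0707 without KO clone 2 in EM, adjusted p = 0.0527 without KO clone 1 in DM and adjusted p = 0.0733 without KO clone 2 in DM. Igfbp5 was thus lower in DM in all 7 lines and clones, by ratios between 0.204 and 0.814.

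Igfbp3 was high in the KO clones in both media, at 1374 and 1530 CPM in EM, against 1844 and 2077 CPM in DM. The ratios were 1.34 and 1.36, and the difference of 0.43 ± 0.15 was not called by edgeR (adjusted p = 0.137) but was called by DESeq2 (adjusted p = 0.0174). Igfbp7 had 193 and 195 CPM in EM, against 363 and 288 CPM in DM, a difference of 0.74 ± 0.20 (adjusted p = 0.0654) that was called with the clone as a block (0.73, adjusted p = 0.0463) and without the WT DM library of clone 1 (adjusted p = 0.0483) or clone 2 (adjusted p = 0.0473). Igf1r had 119 and 106 CPM in EM, against 153 and 134 CPM in DM, a difference of 0.35 ± 0.11 (adjusted p = 0.0970; with the block adjusted p = 0.0484). Both clones moved upward for all of these genes. By edgeR, Igfbp7 was also called with no filter (adjusted p = 4.76e-05) and in a fit of the 4 KO libraries alone (adjusted p = 0.0270). Igfbp2 had 3.79 and 3.81 CPM in EM, against 2.31 and 3.98 CPM in DM (-0.27 ± 0.88, adjusted p = 0.897). Igfbp4 had 0.556 and 0.209 CPM in EM, against 0.205 and 0.159 CPM in DM (-1.04 ± 1.44, adjusted p = 0.724).

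**Figure D3:**
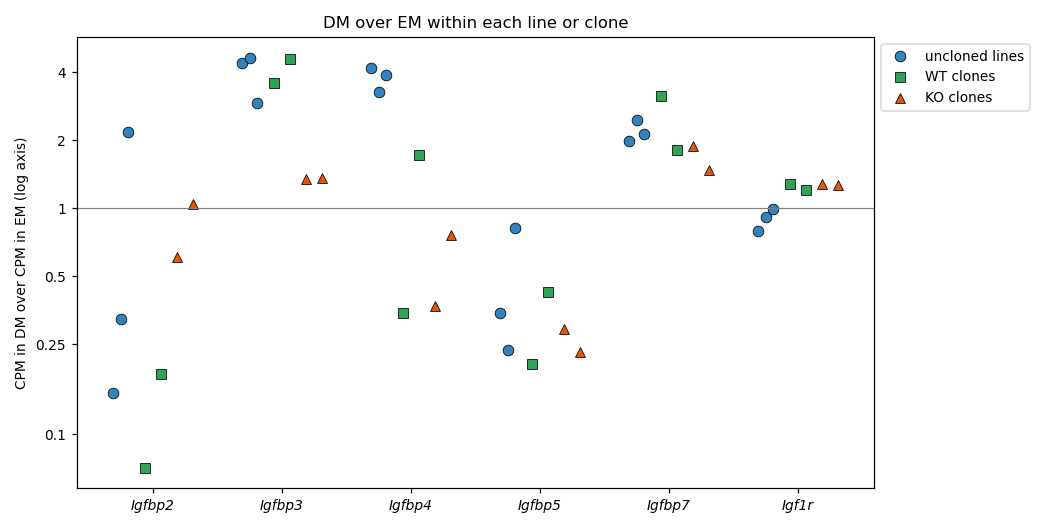
Ratio of CPM in DM to CPM in EM, on a log axis, within each uncloned line (circles), WT clone (squares) and KO clone (triangles). Igfbp3 ratios lie between 2.92 and 4.64 in lines and WT clones and at 1.34 and 1.36 in the KO clones; Igfbp5 ratios are all below 1.

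The last question was how clones labelled KO differ from WT clones, in a design with 2 clones a genotype. In EM, 1 of the 6 genes tested was higher in KO clones and 0 were lower, where 9.8% of all genes were called by edgeR. At an unadjusted p under 0.05 there was 1 in each direction, and DESeq2 called 1 higher and 0 lower. Over all genes, 3915 of 14282 had an unadjusted p under 0.05 and DESeq2 called 2222 of 14005. The member called higher was Igfbp3, with 1374 and 1530 CPM against 672 and 562 CPM, a log2 fold change of 1.24 ± 0.16 (adjusted p = 0.00823) and a fold of 2.35. Without the EM library of KO clone 2 it was 1.15 (adjusted p = 0.0614). Igfbp2 was lower in both KO clones (-1.93 ± 0.88, adjusted p = 0.210), as was Igfbp7 (-0.53 ± 0.20, adjusted p = 0.139), and neither was called. Without the EM library of WT clone 2 the Igfbp2 value was -0.90 (adjusted p = 0.686), and without that of WT clone 1 it was -2.53 (adjusted p = 0.190). Igfbp5 differed by -0.06 ± 0.26, Igf1r by -0.12 ± 0.11 and Igfbp4 by -0.85 ± 1.27.

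In DM, 1 of the 6 genes was lower in KO clones and 0 were higher, where 5.47% of all genes were called by edgeR. An unadjusted p under 0.05 and DESeq2 each gave 0 higher and 1 lower. Over all genes, 3486 of 14282 had an unadjusted p under 0.05 and DESeq2 called 1681 of 13728. Igfbp7 had 363 and 288 CPM in KO and 760 and 581 CPM in WT clones, a log2 fold change of -1.04 ± 0.20 (adjusted p = 0.0349). The call was lost without the DM library of WT clone 1 (-0.84, adjusted p = 0.1004), KO clone 1 (-1.22, adjusted p = 0.125) or KO clone 2 (-0.88, adjusted p = 0.148), without the EM library of KO clone 1 (adjusted p = 0.0727) or KO clone 2 (adjusted p = 0.0730), and in a fit of these 4 libraries alone (-1.03, adjusted p = 0.0871). Igfbp3 was somewhat lower in KO clones, at -0.34 ± 0.15, and was not called (adjusted p = 0.227). Igfbp5 differed by -0.26 ± 0.27, Igf1r by -0.08 ± 0.11, Igfbp2 by 0.49 ± 0.89 and Igfbp4 by -2.41 ± 1.38.

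The medium response of Igfbp3 itself was compared between genotypes. The change from EM to DM was smaller in KO than in WT clones by 1.58 on the log2 scale (interaction -1.58 ± 0.22), with an unadjusted p of 1.70e-04 and an adjusted p of 0.243. In this comparison edgeR called 0 of 6 members and 0 of 14282 genes (0%), with 1126 genes at an unadjusted p under 0.05, of which 1 was a member. With the clone as a block, which the labels support since each clone was grown in both media, the value was -1.58 (adjusted p = 0.0373) among 70 genes called, and DESeq2 called 195 genes, Igfbp3 among them (adjusted p = 7.43e-11). The other 5 genes had interactions between -1.56 and 2.42. None of them was called with the block or by DESeq2, which gave Igfbp4 no adjusted p. The same KO and WT libraries enter all these comparisons, so they are not independent of one another.

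**Figure D4:**
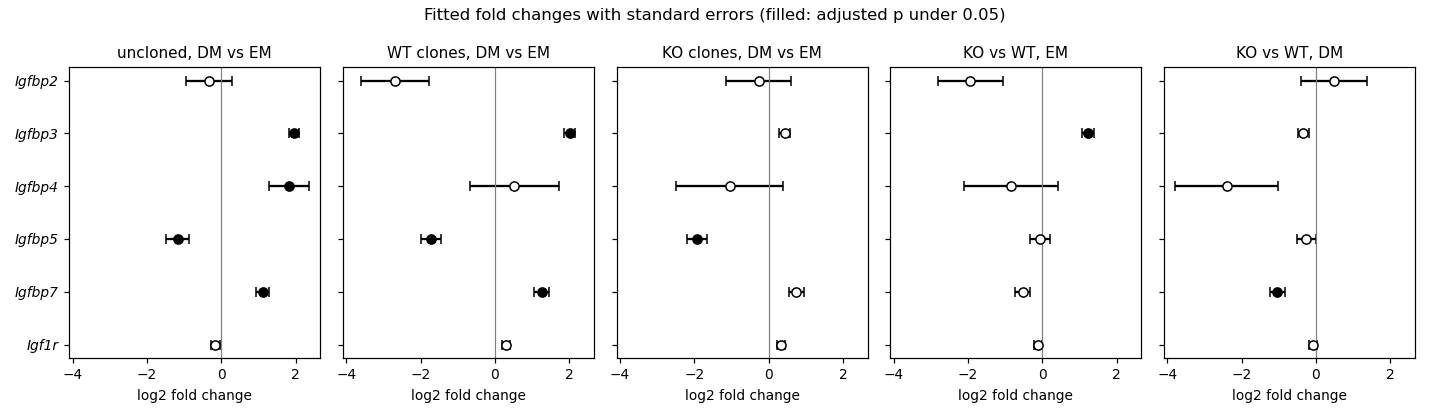
Fitted log2 fold changes (points) with standard errors (bars) for 5 comparisons; filled points have an adjusted p under 0.05, and Igfbp6 is left out because of its low counts. Igfbp3 lies at 1.97 and 2.01 for DM against EM in uncloned organoids and WT clones and at 0.43 in KO clones.

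In the clones the summed level of the carriers per kilobase was 606 to 609 RPKM in WT clones in EM and 1368 to 1434 in DM, and 771 to 810 in KO clones in EM and 940.3 to 940.6 in DM. Igfbp3 made 32.4% of the sum in WT clones in EM and 56.7% in DM, and 58.6% and 66.6% in KO clones. Igfbp7 made 38.2% and 39.5% in WT clones and 20.4% and 28.6% in KO clones. Igfbp5 made 28.0% and 3.69% in WT clones and 20.7% and 4.58% in KO clones. In both genotypes Igfbp5 took the smaller share in DM. Igfbp3 led the sum in KO clones in either medium and in both WT clones in DM. In EM it led in WT clone 1 (35.3% against 32.9% for Igfbp7) but not in WT clone 2 (29.6% against 43.6%).

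Marker lists were also compared between genotypes. Fibroblast markers summed to 0.134 to 0.869 CPM in the WT libraries and to 0.939 to 12.01 CPM in the KO libraries, with Col1a2 at 0 in all 4 groups, and Col6a1 was the one of these markers that passed the filter and was called higher in KO clones. Immune markers summed to 97.7 to 192 CPM in the WT and 31.5 to 63.6 CPM in the KO libraries, with Ptprc, Adgre1 and C1qa at 0 in all 4 groups, and the one that passed the filter, Cd68, was called lower in KO clones in DM. Of 5 acinar markers tested, Pigr was called higher in KO clones in EM and Aqp5 lower in DM, and Krt14 (basal) and Cdh1 (duct) were called higher in EM. Between media, myoepithelial markers summed to 1.20 to 3.61 CPM in WT clones in EM and 11.3 to 29.8 CPM in DM, and to 1.01 to 1.56 CPM and 31.5 to 36.2 CPM in KO clones. Pericyte and vascular muscle markers summed to 0.758 to 1.03 CPM and 11.0 to 26.9 CPM in WT clones, and to 0.678 to 2.63 CPM and 10.04 to 84.3 CPM in KO clones, with Des and Kcnj8 at 0 in both media of the KO clones. In WT clones Mylk, Rgs5, Krt14, Krt18, Epcam, Cdh1 and Aqp5 were called higher in DM, and in KO clones Acta2, Mylk and Epcam were called higher and Aqp5 lower. The part of these markers' cells in the differences of Igfbp3, Igfbp5 and Igfbp7 was not tested.

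The 49 other genes of the pathway were counted by the same fits. In uncloned organoids against tissue, 38 were tested, of which 16 were higher and 16 lower in EM and 15 higher and 18 lower in DM; over all genes 37.4% were higher and 37.4% lower in EM and 38.1% higher and 37.4% lower in DM. Their median log2 fold change was -0.10 in EM and -0.16 in DM, against 0.01 and 0.02 over all genes. With library totals alone the counts became 33 higher and 3 lower in EM and 33 higher and 5 lower in DM. Over all 13713 genes they became 11493 higher and 1302 lower in EM, and 11516 higher and 1270 lower in DM.

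Among the ligands, Igf1 had 5.86, 7.84 and 8.61 CPM in tissue, from 143 counts, and 0 counts in all 6 uncloned organoid libraries. It was at least 191-fold lower in EM and at least 179-fold lower in DM, with 3 counts over the group as the floor. Igf2 had 48 counts in tissue, 1 in EM and 4 in DM. The carrier Igfbp1 had 0 counts in every library of both tables. Of the genes with the smallest p in EM against tissue, Pik3cb, a PI3 kinase catalytic subunit, differed by 1.32 ± 0.10 (adjusted p = 2.97e-07). Rps6kb1, the ribosomal S6 kinase, differed by -1.64 ± 0.08 (adjusted p = 7.64e-09). Htra3, a secreted protease, had 282 counts in tissue and 2 in EM, a ratio of 564 (95% exact interval 155 to 4680), and 3 in DM. These genes were also among those with the smallest p in DM against tissue, with Rps6kb1 at -1.55 and Pik3cb at 1.61.

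For DM against EM in uncloned organoids 5 of the 38 were higher and 15 lower, beside 17.2% higher and 13.2% lower over all genes. Stc2, an inhibitor of PAPP-A, had 36.3, 30.8 and 33.4 CPM in EM, against 6.87, 6.61 and 7.76 CPM in DM, a log2 fold change of -2.24 ± 0.13 (adjusted p = 2.91e-06). Htra1, a secreted protease that can cut IGF-binding proteins, rose by 0.96 ± 0.15 (adjusted p = 8.88e-04). Grb10, an adaptor that restrains the receptor, differed by -2.96 ± 0.39 (adjusted p = 2.70e-04), and Igf2r, which takes IGF2 to lysosomes, by -0.66 ± 0.10 (adjusted p = 8.66e-04). Pappa, which encodes PAPP-A and was picked for mention after its values were seen, had 0, 0 and 0.248 CPM in EM, against 5.59, 11.2 and 0.990 CPM in DM (adjusted p = 0.00154), lowest in line 8.

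In the WT clones 2 of 35 pathway genes were higher in DM and 3 lower, beside 9.61% and 6.13% over all genes. Igf2r was at -0.80 ± 0.12 (adjusted p = 0.00780), Pik3r2, a PI3 kinase regulatory subunit, at -0.66 ± 0.11 (adjusted p = 0.0105) and Pik3cb at 0.43 ± 0.11 (adjusted p = 0.0383). In the KO clones 1 was higher and 3 lower, beside 4.94% and 3.41% over all genes: Pik3cb at 0.60 ± 0.11 (adjusted p = 0.0241), Igf2r at -0.93 ± 0.12 (adjusted p = 0.00980), Stc2 at -1.75 ± 0.32 (adjusted p = 0.0234) and Insr, the insulin receptor, at -0.53 ± 0.11 (adjusted p = 0.0356). Igf2r was thus called lower in DM in uncloned organoids, WT clones and KO clones. Between genotypes in EM, where 5.38% of all genes were higher and 4.41% lower in KO clones, Pik3cb was lower in KO clones (-0.56 ± 0.11, adjusted p = 0.0249) and Rptor, a subunit of mTOR complex 1, higher (0.45 ± 0.10, adjusted p = 0.0376). In DM 0 of the 35 were called by edgeR, with 5 higher and 9 lower at an unadjusted p under 0.05, and DESeq2 called 2 higher and 4 lower. Over all genes edgeR called 2.39% higher and 3.08% lower there, and 3486 of 14282 had an unadjusted p under 0.05. Of 13728 genes DESeq2 called 734 higher and 947 lower. For the interaction 0 of the 35 were called by edgeR or DESeq2, with 1 in each direction at an unadjusted p under 0.05. Over all genes edgeR called 0 of 14282, 1126 had an unadjusted p under 0.05, and DESeq2 called 195 of 12343.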

How the data were processed

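The values are deposited counts of reads per gene, whole numbers that were not normalized, in a table of 9 libraries and another of 8. Per the labels' protocols, RNA was extracted with a column kit and libraries were made with a stranded kit for polyadenylated RNA. Per the submitters' processing notes, STAR, featureCounts and GRCm38 were used. The sources used here give no versions, annotation or strand setting, and a wrong strand setting would move reads of overlapping genes.

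Gene IDs were matched to GENCODE M21: 36429 of 38293 and 55227 of 55487. All 7 genes matched. Each table was fitted apart with edgeR 4.0.16 (R 4.3.3): filterByExpr, which left 13713 and 14282 genes, scaling by the trimmed mean of M-values, a mean per group over all groups of the table, and the quasi-likelihood test with Benjamini-Hochberg adjustment over the genes tested. Of the 7 genes, 7 passed the filter in the first table and 6 in the second. A gene was called at an adjusted p under 0.05. The residual degrees of freedom were 6 and 4. Values with ± are log2 fold changes and their SE. Floors rest on 3 counts, and intervals and floors cover counting error only.

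Alternatives were DESeq2 1.42.0, its size factors, library totals, no filter, the libraries of both groups alone, a block on line or clone, and leaving out each library. Clones pair EM with DM because the labels give the same clone in both; deviations from the group means of the same clone correlated at 0.603 (WT) and 0.507 (KO). For lines 6, 7 and 8 the correlations between EM and DM were 0.181, 0.122 and 0.0933.

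The genes and lists were chosen with earlier results of these data known. By the naming rule, all 7 genes are given, then per comparison the counts of a list of 49 pathway genes and up to 4 called ones with the smallest p, and the 3 genes most like each gene that was tested in both tables, which leaves out Igfbp6. Some pathway genes that the rule names are not reported here. Promoter sequences are RefSeq's, with an entry for each of the 7 genes and a further entry for Igfbp2. Protein sequences were not used here.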

Additional observations from a re-analysis of the deposited data

Results flagged for a closer look

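Igfbp3 was higher in both KO than in both WT clones in EM (1.24, adjusted p = 0.00823 by edgeR), while in DM both KO clones lay below both WT clones and the difference was not called (-0.34, adjusted p = 0.227). The interaction was -1.58 on the log2 scale, with an adjusted p of 0.243 by edgeR's quasi-likelihood test and 0.0373 with the clone as a block. Over the single libraries left out, the interaction lay between -1.71 and -1.45 with adjusted p between 0.121 and 0.733.

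Igfbp4 was higher in DM than in EM in all 3 uncloned lines (1.82) and lower in both KO clones (-1.04). The latter was not called (adjusted p = 0.724 by edgeR), rests on levels under 1 CPM and lay between -1.58 and -0.19 with single libraries left out, -0.19 without the EM library of KO clone 1. Igf1r was lower in DM in all 3 uncloned lines (-0.16) and higher in both WT clones (0.31) and both KO clones (0.35). These differences between uncloned organoids and clones were not tested, since the tables were counted and scaled apart, and the time in DM may differ between them.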

How the results depend on the processing

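Of the members' fold changes under the alternatives, 650 kept direction and side of the threshold, 23 lost a call, 21 gained one and 19 changed sign. The cause of the changes was not tested. With library totals, members lower in DM against tissue numbered 1, with Igfbp4 at 0.083, and pathway genes numbered 33 higher and 3 lower (EM against tissue) and 33 higher and 5 lower (DM against tissue). Over all genes the split of higher to lower calls went from 5130 to 5129 to 11493 to 1302 (EM against tissue), from 5223 to 5135 to 11516 to 1270 (DM against tissue) and from 2352 to 1806 to 1952 to 2597 (uncloned DM against EM). Library totals also gave 3 pathway genes higher in uncloned DM, 0 higher in WT clones in DM and 1 lower in KO than WT in DM. Of 14282 genes they called 1209 higher in WT clones in DM and 403 lower in KO than WT in DM. DESeq2's size factors gave 2 pathway genes lower in KO than WT in EM, beside 642 lower of 14282 genes.

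With no filter, members numbered 2 lower in WT clones in DM, 1 higher in KO clones in DM, 2 lower in KO than WT in either medium, and 1 higher and 1 lower in the interaction; pathway genes numbered 3 higher (uncloned DM), 5 higher (WT, DM), 4 higher (KO, DM), 3 higher and 3 lower (KO against WT, EM) and 1 higher and 6 lower (KO against WT, DM). Of 28104 genes in the clones, no filter called 3497 (WT, DM), 2572 (KO, DM) and 657 (interaction). For KO against WT it called 2947 in EM and 2547 in DM. In uncloned DM it called 4190 of 21800. DESeq2 gave 2 members lower in WT and 3 higher in KO clones in DM and 1 lower in the interaction, and pathway counts of 2 higher (KO, DM), 2 higher and 3 lower (KO against WT, EM) and 2 higher and 4 lower (KO against WT, DM). Over all genes DESeq2 called 2925 (WT, DM) and 1973 (KO, DM) of 14282, and 195 of 12343 (interaction). For KO against WT it called 2222 of 14005 in EM and 1681 of 13728 in DM. The clone as a block gave 2 members lower (WT, DM), 2 higher (KO, DM) and 1 lower in the interaction, and 5 (WT) and 3 (KO) pathway genes higher in DM; the block changed no other count of members by over 1.5 times. Over all 14282 genes the block called 3650 (WT, DM), 2338 (KO, DM) and 70 (interaction). The libraries of both groups alone gave 1 member higher in KO clones in DM and 0 lower in KO than WT in DM, and pathway counts of 1 higher and 1 lower (WT, DM), 2 higher (KO, DM) and 2 higher and 2 lower (KO against WT, EM). Over all genes these fits called 924 of 13766 (WT, DM) and 1679 of 13399 (KO, DM). For KO against WT they called 1449 of 13418 in EM and 110 of 13494 in DM.

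Leaving out single libraries, a lone sample being assumed to vary like the others, members numbered 0 to 2 lower (uncloned DM), 1 to 2 higher and 1 to 2 lower (WT, DM), 0 to 1 higher and 0 to 1 lower (KO, DM), 0 to 1 higher (KO against WT, EM) and 0 to 1 lower (KO against WT, DM). Pathway genes numbered 3 to 9 higher (uncloned DM), 0 to 1 higher and 1 to 4 lower (WT, DM), 0 to 2 higher and 0 to 3 lower (KO, DM), 0 to 2 higher and 0 to 1 lower (KO against WT, EM) and 0 to 1 higher and 0 to 2 lower (KO against WT, DM). The calls over all genes moved too. In uncloned DM against EM they ran from 2894 of 14056 genes, without the DM library of line 6, to 5361 of 14016, without that of line 8. For the clones the ranges over all genes are given in the next paragraph. Fold changes that changed sign ranged, for DM against EM, from -2.09 to 0.10 (Igfbp2) and -1.50 to 2.29 (Igfbp6) in uncloned organoids, -2.84 to 1.87 (Igfbp4) in WT and -0.72 to 0.068 (Igfbp2) in KO clones. For KO against WT they ranged from -1.70 to 0.51 (Igfbp4) and -0.22 to 0.13 (Igfbp5) in EM, and from -0.18 to 0.0077 (Igf1r), -0.36 to 2.63 (Igfbp2), -3.36 to 0.95 (Igfbp4) and -0.57 to 0.15 (Igfbp5) in DM. For the interaction they ranged from -0.066 to 0.13 (Igf1r), -2.92 to 1.79 (Igfbp4) and -0.52 to 0.20 (Igfbp5).

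Over all genes the calls ran, over all alternatives, from 789 to 3650 around 2247 (WT, DM), 82 to 2572 around 1193 (KO, DM), 175 to 2947 around 1399 (KO against WT, EM), 0 to 2547 around 781 (KO against WT, DM, 0 by edgeR without the DM library of KO clone 1) and 0 to 657 (interaction). Low counts limit Igfbp6 in organoids and Igfbp4 in clones, and 2 clones a genotype limit every clone comparison.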

Other observations

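For the 6 genes tested in both tables, which leaves out Igfbp6, the genes whose level ran most closely with theirs were listed. The likeness is the mean of Pearson's r of log2(CPM + 1) over the 9 libraries of the first table and over the 8 of the second, among 11657 genes tested in both. Its points share groups, lines and media, so it is given as a description. The genes most like Igfbp3 were Il1rn, the interleukin 1 receptor antagonist (0.978), Itga2, a collagen-binding integrin (0.977), and Birc3, an inhibitor of apoptosis (0.976). Most like Igfbp5 were Tprn (0.971), Tfcp2l1, a transcription factor of duct epithelium (0.963), and Nrg2, a neuregulin (0.963). Most like Igfbp7 were Erfe (0.973), Rab11a, a recycling endosome GTPase (0.970), and Nrp2, a semaphorin co-receptor (0.967).

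Igfbp2 ran with Kitl, the KIT ligand (0.945), Pxmp4 (0.932) and Ppp1r37 (0.923), and Igfbp4 with Aldh1l1 (0.939), Hpn (0.902) and Epsti1 (0.898). Igf1r ran with Wnt7b, a WNT ligand (0.970), Tmsb10 (0.962) and Bst1 (0.962).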
